A study of Mus musculus with 32 samples.

Results

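The 10 genes described here encode enzymes and receptors of the prostaglandin and leukotriene pathways: Ptgs1, Ptgs2, Ptges, Ptgis, Hpgds, Tbxas1, Ptger2, Ptger4, Alox5, and Alox5ap. They were chosen by name, and all 10 were found among the 22850 genes of the table. RNA-sequencing values came from 3 populations sorted from dispersed islets, β cells, ECs (endothelial cells), and MΦs (macrophages), of adult mice that carry the MIP-GFP, RIP-rtTA, and TetO-VEGF-A transgenes (βVEGF-A; MIP-GFP). All groups carried the same transgenes. The rat insulin promoter restricts rtTA, and with it the doxycycline (Dox)-induced human VEGF-A, to β cells, and the mouse insulin promoter drives GFP there. Mice received no Dox (No Dox), 1 week of Dox (1wk Dox), or 1 week of Dox and then 1 week of withdrawal (1wk WD). β cells (GFP+, taken from cells negative for CD31 and CD11b) had 4, 5, and 3 samples at these time points, ECs (CD31+) had 4, 1, and 5, and MΦs (CD11b+) had 4, 2, and 4. A sample held the pooled islet cells of several mice. The question for these genes was which islet cell type expressed each step of the pathways and whether that changed as VEGF-A was switched on and off.

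Phospholipases release arachidonic acid from membranes, and the cyclooxygenases COX-1 (Ptgs1) and COX-2 (Ptgs2) turn it into prostaglandin H, from which terminal synthases make prostaglandin E (Ptges), prostaglandin D (Hpgds), prostacyclin (Ptgis), and thromboxane (Tbxas1). In a separate branch 5-lipoxygenase (Alox5), aided by its membrane partner FLAP (Alox5ap), starts the synthesis of leukotrienes. Ptger2 and Ptger4 encode the prostaglandin E receptors EP2 and EP4, which raise cyclic AMP; endothelium is a known source of prostacyclin, platelets of thromboxane, and activated MΦs of prostaglandin E and leukotrienes.

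Values are the authors' normalized scores, whole numbers of at least 1, where 1 is the lowest score in the table. Summed scores ranged from 23465985 to 53441769 per sample, and the sequencing depth behind them is unknown. Relative to the No Dox median of the matching cell type, 8 EC markers summed to 77.4–118% in ECs and 0.298–0.814% in MΦs, and 8 MΦ markers to 81.5–157% in MΦs and 0.14–0.269% in ECs. The β cell samples were less uniform. Their own 8 markers ranged from 14.0% to 303% of the No Dox median, EC markers in them from 0.286% to 10.5%, and MΦ markers from 0.199% to 2.11%. Markers of stromal cells and pericytes averaged 5.40 and 4.52 on the log2(score + 1) scale in β cell No Dox samples 1 and 2, and 10.5–14.7 in the other 10 β cell samples. Acinar markers took up to 22.5% of the summed score in No Dox β cells, 4.44% in No Dox ECs, and 19.5% in No Dox MΦs, but at most 0.0712%, 0.000566%, and 0.0099% in the 1wk Dox samples. What these other cells contributed to the results below was not tested.

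The cyclooxygenases are encoded apart, Ptgs1 at chr2:36085946-36107792 and Ptgs2 at chr1:151947254-151955140, both on the + strand of mm9. Because these paralogs behaved differently in MΦs and ECs, the 250 bases before their RefSeq start sites are shown, with those of Hpgds, which shared a motif with Ptgs1. The sequences are from RefSeq (GRCm38.p6), and each matched mm9 exactly, at chr2:36085696-36085945 for Ptgs1, chr1:151946911-151947160 for Ptgs2, and chr6:65094725-65094974 on the - strand for Hpgds. Capitals mark GAGGAAGT, a PU.1-type motif.
Ptgs1: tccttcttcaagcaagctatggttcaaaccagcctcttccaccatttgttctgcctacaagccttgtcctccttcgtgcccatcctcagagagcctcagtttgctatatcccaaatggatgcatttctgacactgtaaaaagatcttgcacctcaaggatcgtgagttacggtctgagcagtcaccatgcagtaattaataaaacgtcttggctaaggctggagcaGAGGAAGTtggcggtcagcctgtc
Ptgs2: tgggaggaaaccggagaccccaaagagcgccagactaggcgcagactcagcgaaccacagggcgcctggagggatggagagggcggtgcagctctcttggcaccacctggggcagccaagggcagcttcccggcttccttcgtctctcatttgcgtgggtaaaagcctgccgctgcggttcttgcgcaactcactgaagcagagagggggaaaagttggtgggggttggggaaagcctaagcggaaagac
Hpgds: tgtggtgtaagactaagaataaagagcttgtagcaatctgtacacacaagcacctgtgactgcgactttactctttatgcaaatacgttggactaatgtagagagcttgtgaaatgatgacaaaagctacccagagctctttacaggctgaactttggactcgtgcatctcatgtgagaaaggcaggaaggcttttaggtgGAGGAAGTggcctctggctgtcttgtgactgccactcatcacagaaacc
Of the 10 genes, 8 had a RefSeq entry, and Ptgis and Alox5ap did not. Both strands were searched for GAGGAAGT, for the E-box CACGTG, for the TATA box TATAAA, and for the core of the cyclic AMP response element, ACGTCA. These motifs were chosen after the sequences were read. GAGGAAGT began 24 bases before the start site of Ptgs1 and 49 bases before that of Hpgds, and 2.44% of 32851 mouse promoter windows of this length hold it. TATAAA was found on both strands of Tbxas1, as overlapping matches that began 13 and 11 bases before its start, and is in 12.4% of windows. CACGTG (6.02% of windows) and ACGTCA (6.47%) were in none of the 8. These windows follow RefSeq starts, which do not all coincide with the gene coordinates given here. The 2 starts were the same for Ptgs1, Alox5, and Ptger4. The RefSeq start lay 93 bases before the gene model of Ptgs2 and 84 before that of Ptger2, and 178, 26566, and 43582 bases inside those of Hpgds, Ptges, and Tbxas1. Bases outside the windows were not searched. A match in letters is a description and not a binding site.

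At No Dox, 7 of the 10 genes had every MΦ sample above every β cell and EC sample: Ptgs2, Hpgds, Tbxas1, Ptger2, Ptger4, Alox5, and Alox5ap. Against β cells, 8 of the 10 genes were higher in MΦs and 2 were lower, by limma. A call needed a 2-fold difference with an adjusted p (Benjamini-Hochberg over all genes) under 0.05, and 43.2% of all genes tested met this rule, 19.7% as higher in MΦs and 23.5% as lower. Against ECs, 8 were higher in MΦs and 0 were lower, where 33.5% of all genes were called (17.6% higher, 15.9% lower). Between ECs and β cells, 1 gene was higher in ECs and 4 were lower (Ptges, Alox5ap, Ptgis, and Hpgds), where 37.7% of all genes were called (16.5% higher, 21.2% lower). Only the No Dox samples of the 3 cell types entered this fit.

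Tbxas1 (chr6:38825403-39034584), thromboxane synthase, had scores of 33453, 24265, 30715, and 24156 in No Dox MΦs. ECs had 1034, 847, 731, and 906 and β cells 87, 157, 812, and 759, so that the MΦ samples stood far above both. The log2 fold change was 6.52 (SE 0.60, adjusted p = 4.41e-06) against β cells and 4.99 (SE 0.60, adjusted p = 3.04e-05) against ECs. Hpgds (chr6:65067287-65094902), the hematopoietic prostaglandin D synthase, scored 3572–7176 in MΦs, 161–849 in β cells, and 48–80 in ECs, 3 ranges that did not overlap. Its MΦ level was higher by a log2 fold change of 3.52 (SE 0.49) against β cells and 6.10 (SE 0.49) against ECs. In the MΦ samples, beside 277414–533759 for MΦ markers, those of monocytes summed to 32632–44924, of dendritic cells to 24567–35157, of platelets to 2579–7767, of neutrophils to 1900–3527, and of mast cells to 925–2367.

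Both leukotriene genes were MΦ genes as well. Alox5ap (chr5:150076634-150099621) scored 8342, 8185, 9503, and 10278 in No Dox MΦs, 175–418 in β cells, and 1–11 in ECs. It was higher in MΦs by a log2 fold change of 4.94 against β cells (SE 0.53, adjusted p = 1.33e-05). Alox5 (chr6:116360095-116411196), the enzyme itself, scored 674–1538 in MΦs, 94–159 in ECs, and 91–458 in β cells. The MΦ range stood clear of both other cell types, with a log2 fold change of 2.34 (SE 0.44) against β cells and 3.12 (SE 0.44) against ECs.

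The receptors followed the same order. Ptger4 (chr15:5156661-5194187) scored 6324–8756 in No Dox MΦs, 510–638 in ECs, and 328–786 in β cells. MΦs were higher by 3.73 (SE 0.24) on the log2 scale against β cells and 3.70 (SE 0.24) against ECs, while ECs and β cells overlapped. Ptger2 (chr14:45607870-45623495) scored 166–257 in MΦs, 1–41 in β cells, and 1 in all 4 EC samples. With every EC sample at the lowest score, no fold against ECs is given for Ptger2.

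Ptges and Ptgis ran against this pattern. Ptges (chr2:30744991-30785383), the inducible prostaglandin E synthase, scored 6842, 7824, 2824, and 1006 in No Dox β cells, 192–337 in MΦs, and no more than 14 in ECs. It was lower in MΦs than in β cells by a log2 fold change of -3.68 (SE 0.75, adjusted p = 0.00138). The 2 highest β cell values were those of samples 1 and 2, the samples with the lowest stromal marker levels. Ptgis (chr2:167017305-167066104), prostacyclin synthase, scored 301, 133, 825, and 1805 in No Dox β cells, against 35–77 in ECs and 1–39 in MΦs. ECs were lower than β cells by -3.14 (SE 0.99, adjusted p = 0.0209); without β cell samples 3 and 4, those with high stromal markers, the difference was -1.84 and was not called (adjusted p = 0.168).

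The cyclooxygenases divided between cell types. Ptgs1 scored 7443, 7885, 8511, and 8047 in No Dox ECs, 2697, 2857, 1934, and 2666 in MΦs, and 20, 8, 243, and 1095 in β cells. ECs were above every MΦ and β cell sample, with a log2 fold change of 6.56 over β cells (SE 1.15, adjusted p = 0.000605), which was 3.94 without β cell samples 1 and 2 and 9.18 without samples 3 and 4. MΦs were at -1.66 relative to ECs, which was not called in the fit of all 3 cell types (SE 1.15, adjusted p = 0.278) and was called when MΦs and ECs were fitted alone (adjusted p = 3.04e-06); β cells vary far more for this gene. Ptgs2 was the reverse. It scored 7543, 6799, 10021, and 6181 in MΦs, 5, 8, 427, and 904 in β cells, and 2, 23, 3, and 16 in ECs, where all samples were near the lowest score. Its MΦ level was higher than that in β cells by a log2 fold change of 6.79 (SE 1.47, adjusted p = 0.00206), or 3.59 and 10.0 with the same samples left out. The size of other differences between MΦs and β cells also turned on these samples, though the 10 calls were kept: Tbxas1 was at 5.15 without samples 1 and 2 and 7.88 without samples 3 and 4, Hpgds at 4.53 and 2.51, Alox5 at 2.98 and 1.70, and Ptges at -2.62 and -4.74.

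**Figure D1:**
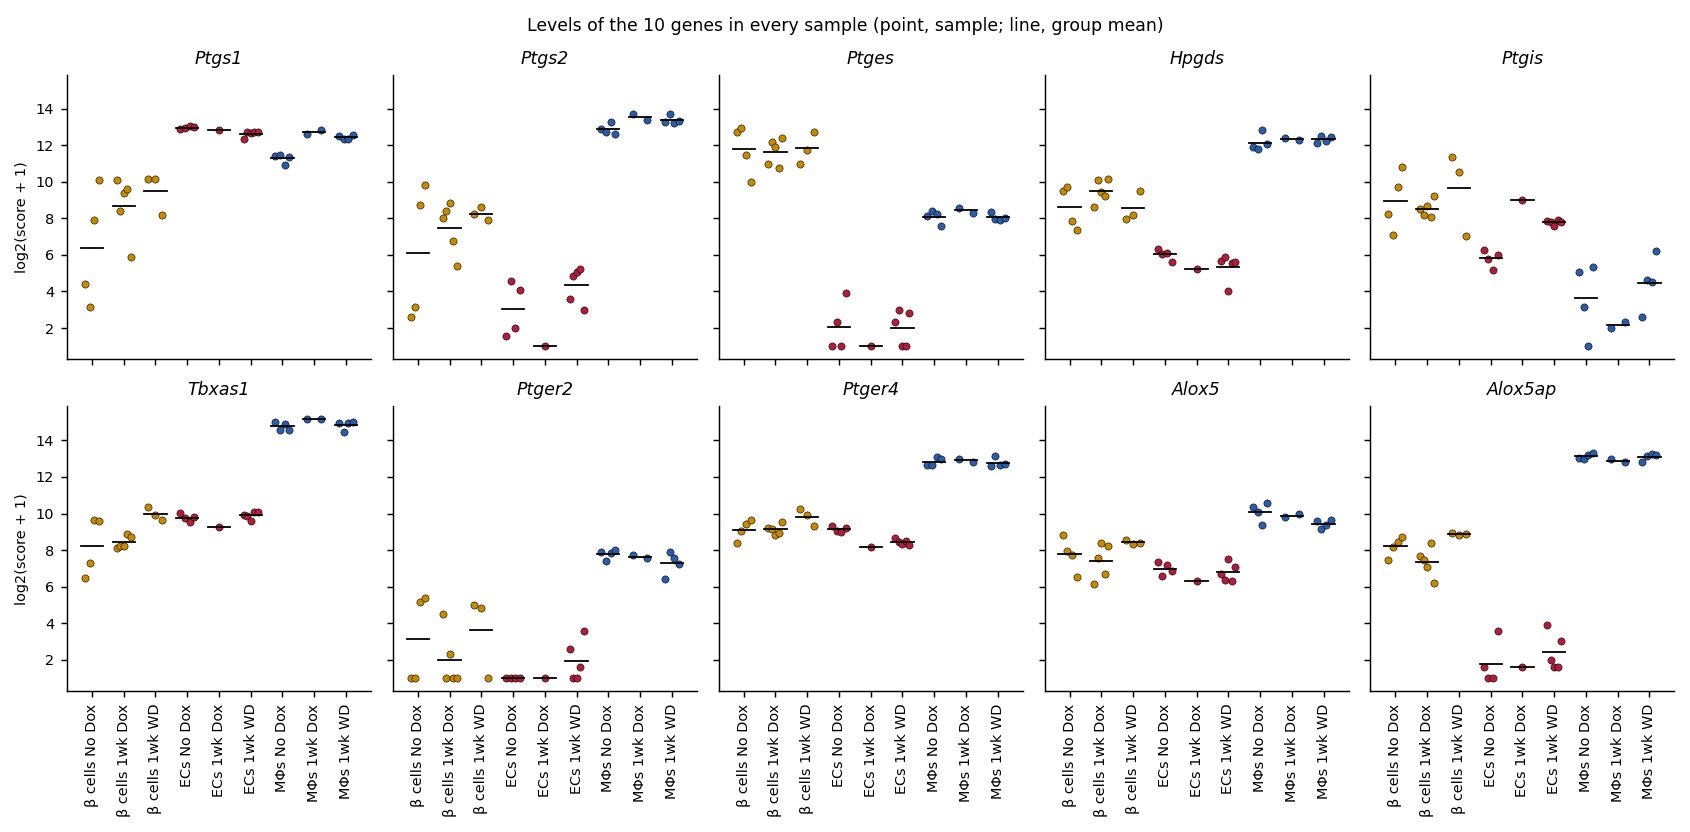
Log2(score + 1) of each of the 10 genes (y axis) in every sample, by cell type and time point (x axis); points are samples and lines are group means. MΦs lie above β cells and ECs for 7 genes, ECs are highest for Ptgs1 at No Dox, and β cells are highest for Ptges.

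In MΦs, Ptgs1 was the gene that changed. From 2697, 2857, 1934, and 2666 at No Dox, its scores went to 6197 and 7327 with 1wk Dox, and were 5728, 5124, 5228, and 5994 in the 1wk WD samples. Every sample taken after Dox was above every No Dox sample. The 1wk Dox samples exceeded No Dox by 1.42 on the log2 scale (SE 0.17, adjusted p = 0.00167, limma), a 2.68-fold rise, and those of 1wk WD by 1.13 (SE 0.14, adjusted p = 0.00485), a 2.19-fold rise. Of the 10 genes, 1 was called at 1wk Dox, where 2.26% of all genes were, and 1 at 1wk WD, where 0.626% were. Between 1wk Dox and 1wk WD, Ptgs1 differed by -0.29 (SE 0.17, adjusted p = 0.639, limma). There, 0 of the 10 genes were called, against 0.0866% of all genes. At an unadjusted p under 0.05 there were 0 members, and 273 of all 15014 genes met that p with a 2-fold difference. The 1wk Dox call rests on 2 samples, and leaving out sample 4 left 1 in the group (difference 1.54). It was lost by limma with the replicate number as a block (1.20, adjusted p = 0.173). The 1wk WD call was lost when the spread was not modeled on mean expression (adjusted p = 0.0565). Both comparisons share the No Dox samples. The column identifiers of the 1wk Dox MΦ samples fall in a number series apart from those of the other MΦ samples. The 1wk Dox time point and that series cannot be told apart.

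MΦ markers also ran higher after Dox, with sums at 128–157% of the No Dox median in 1wk Dox samples and 123–149% in those of 1wk WD. EC markers, from cells in which Ptgs1 is abundant, summed to 0.298–0.421% of their level in No Dox ECs in the No Dox MΦs, then 0.665–0.814% with Dox and 0.399–0.583% after its withdrawal. Platelets express Ptgs1 too, and the 6 platelet markers summed to 2579–3231, 4800–7767, and 4202–4728. Of the 6, Pf4 went from 322–1176 to 2641–5630 with Dox and 2287–2915 after withdrawal, and Ppbp from 1–32 to 111 and 176 and then 22–66. Both were called as higher at 1wk Dox, and Pf4 also at 1wk WD. Gp9 scored 1232–2562 and Itga2b 81–344 over the 10 MΦ samples, Gp1bb 1–9, and Gp6 1 or 2. Acinar markers over the same samples went from sums of 23191–10428405 to 1027 and 3257 and then 1499–185869. The part of these other cells in the Ptgs1 change was not tested. In this and all other bulk comparisons, fewer cells of a type and less RNA per cell cannot be told apart.

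Ptgs2, the cyclooxygenase induced in inflammation, had scores of 7543, 6799, 10021, and 6181 at No Dox, then 13342 and 10703 with 1wk Dox, then 9844, 13406, 9368, and 10102 in the 1wk WD samples. Both 1wk Dox samples were above all No Dox samples, and the 1wk WD range overlapped that of No Dox. The differences were 0.67 (SE 0.20, adjusted p = 0.0806) and 0.49 (SE 0.17, adjusted p = 0.154) on the log2 scale, and were not called. Per exonic kilobase, a length-scaled level, Ptgs2 stood above Ptgs1 in all 10 MΦ samples. The ratio of Ptgs2 to Ptgs1 was 2.17–4.86 at No Dox, 1.37 and 2.02 with 1wk Dox, and 1.58–2.45 after withdrawal. In ECs the ratio was at most 0.00492.

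**Figure D2:**
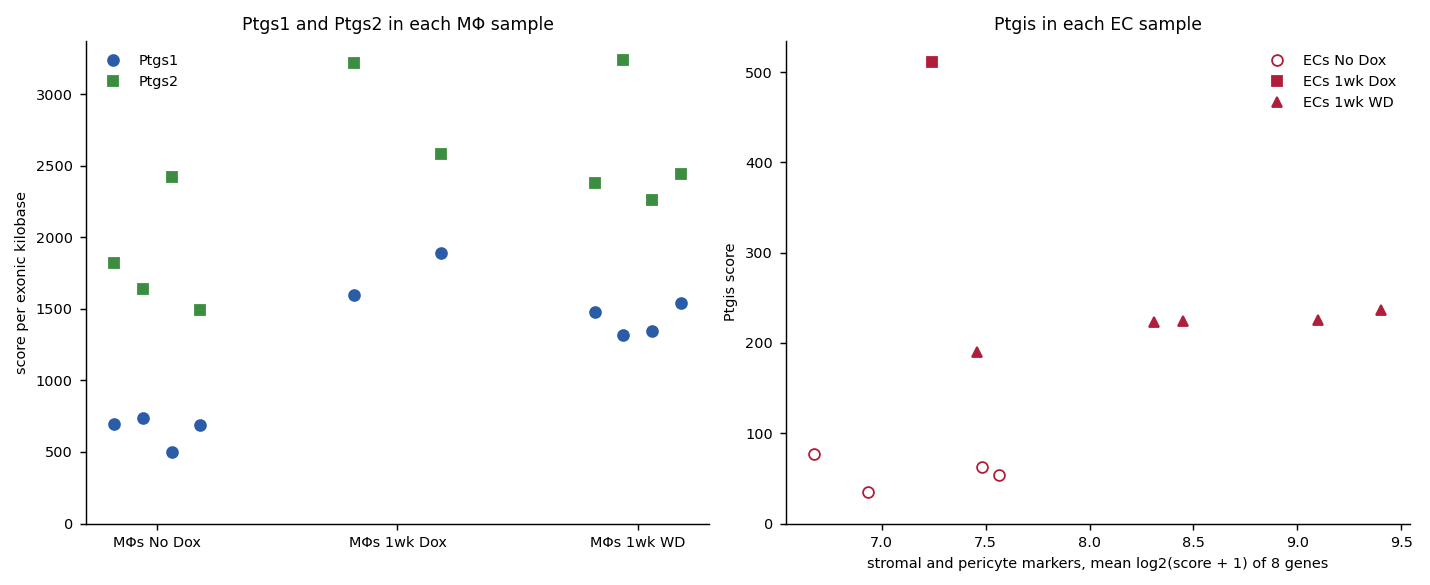
Left, Ptgs1 (circles) and Ptgs2 (squares) as score per exonic kilobase in each MΦ sample by time point; Ptgs2 is above Ptgs1 in every sample while Ptgs1 rises after Dox. Right, the Ptgis score of each EC sample against the mean log2(score + 1) of 8 stromal and pericyte markers; the 1wk WD samples at 190–236 and the 1wk Dox sample at 511 lie above the No Dox samples at 35–77.

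No other member passed the thresholds in MΦs. Tbxas1 scored 36541 and 36297 at 1wk Dox, above the No Dox range, with a log2 fold change of 0.39 (SE 0.20, adjusted p = 0.285). Alox5 went from 674–1538 at No Dox to 567–813 at 1wk WD, ranges that overlap, with -0.66 (SE 0.23, adjusted p = 0.176). Alox5ap stayed between 7154 and 10278 in all 10 samples, Ptger4 between 6171 and 9165, and Hpgds between 3572 and 7176. Ptges scored 192–377 and Ptger2 85–257 over the same samples.

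In ECs, prostacyclin synthase rose. Ptgis scored 77, 54, 35, and 63 at No Dox, 511 in the single 1wk Dox sample, and then 226, 223, 190, 236, and 224 after withdrawal. All 6 samples taken after Dox were above all 4 No Dox samples. Withdrawal samples exceeded No Dox by 1.97 on the log2 scale (SE 0.26, adjusted p = 0.00323, limma), a 3.93-fold rise. Of the 7 members that passed the minimum mean score of 20, 1 was called, beside 1.76% of all genes. The 1wk Dox sample exceeded the No Dox mean by 3.19 on the log2 scale, or 9.13-fold, with no replicate and no test. Its column identifier falls in the same series as the 1wk Dox MΦ samples, apart from the other EC samples. Its time point and that series cannot be told apart. Of the 6 members that passed there, Ptgis was the 1 past 2-fold and outside the No Dox range, where 10.1% of all genes were.

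Stromal and pericyte markers moved in these samples as well. Their mean log2(score + 1) was 6.67–7.56 in No Dox ECs, 7.24 in the sample given Dox, and 7.46–9.40 after withdrawal, and Col3a1, Rgs5, and Col1a1 were called as higher at 1wk WD. Their summed score was 5580–12423, 14206, and 16430–69827, most of it Rgs5, and every sample after Dox was above every No Dox sample. In the 1wk Dox sample Rgs5 (12236 against 4449–9981), Col3a1 (161 against 55–131), and Col1a1 (86 against 10–33) were above the No Dox range, Pdgfrb, Acta2, and Cspg4 were inside it, and Pdgfra and Dcn, at 2 and 3, were below it. Acinar markers moved the other way, summing to 57616–1551521 at No Dox, 197 in the 1wk Dox sample, and 668–56726 after withdrawal. Within the 1wk WD ECs, Ptgis ranked as the stromal marker level did, from 190 (level 7.46) to 236 (level 9.40). At No Dox its highest EC score, 77, was in the sample with the lowest level. In β cells at 1wk WD, Ptgis scored 2643, 1503, and 131, with 131 in the sample lowest in stromal markers. At 1wk Dox its highest β cell score, 602, was in the sample lowest in them. The part of stromal and acinar cells in the Ptgis change was not tested. Ptgis shares 156 exonic bases with a lincRNA on the opposite strand, 1110018N20Rik, and the counting is not stated to use strand, so reads there cannot be assigned.

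Ptgs1, the cyclooxygenase of ECs, went from 7443, 7885, 8511, and 8047 at No Dox to 7226 in the 1wk Dox sample and to 5189, 6705, 6466, 6857, and 6716 after withdrawal. Every sample after Dox was below every No Dox sample, yet the 1wk WD difference of -0.33 (SE 0.10, adjusted p = 0.0975) was not called. Ptger4 went from 638, 524, 510, and 591 to 401, 348, 326, 356, and 314, with 286 at 1wk Dox. It fell by 0.69 on the log2 scale (SE 0.15, adjusted p = 0.0223), short of 2-fold. EC markers summed to 96.1–104% of the No Dox median at No Dox, 118% in the 1wk Dox sample, and 77.4–88.3% after withdrawal, and their part in these differences was not tested. Ptger4 shares 82 exonic bases with Ttc33 and 1015 with the pseudogene Gm15937. Tbxas1, at 731–1034 and then 768–1086, had overlapping ranges, and Hpgds, at 48–80 and then 15–57, differed by -0.70 (SE 0.41, adjusted p = 0.336). The 1wk Dox sample scored 612 for Tbxas1, 36 for Hpgds, and 79 for Alox5 (94–159 at No Dox). All 3 were below the No Dox range, as were Ptgs1 and Ptger4. Alox5ap, Ptger2, and Ptges were under the minimum, with no EC score above 14.

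**Figure D3:**
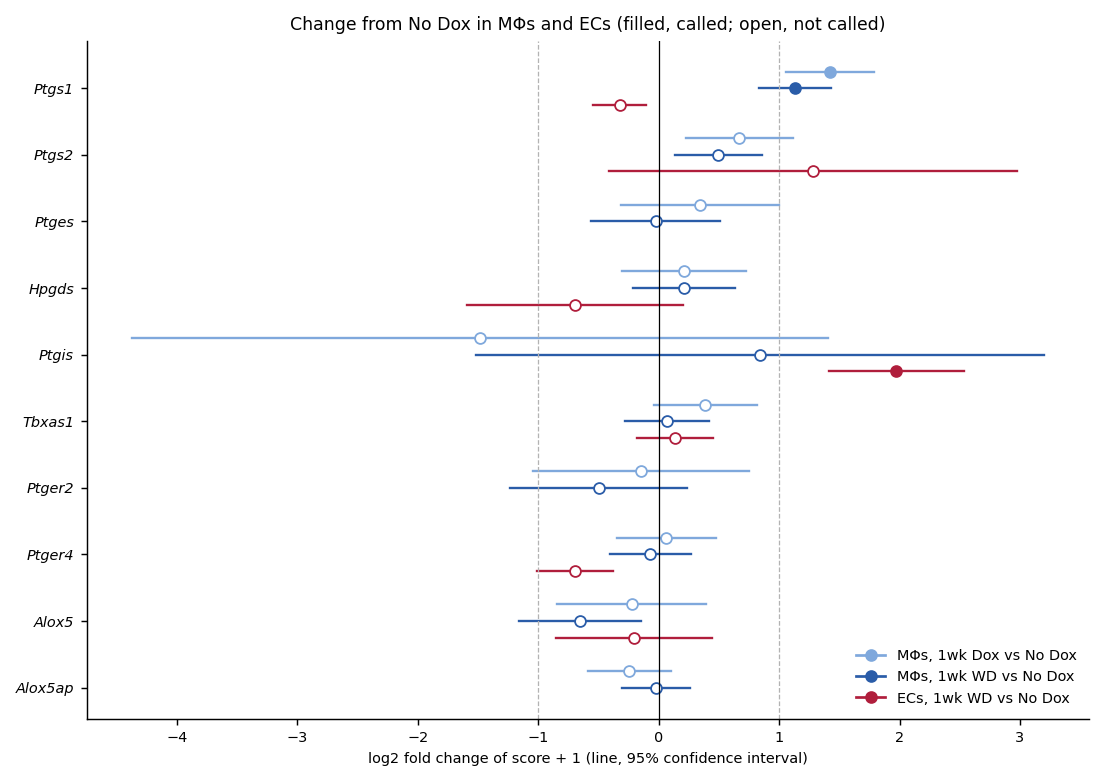
Log2 fold change of score + 1 from No Dox (x axis) for each gene (y axis) in MΦs at 1wk Dox and 1wk WD and in ECs at 1wk WD; lines are 95% confidence intervals and filled points passed the 2-fold and adjusted p thresholds. Ptgs1 in MΦs and Ptgis in ECs are filled, and Ptgs1 in ECs lies left of 0.

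The response of Ptgs1 to withdrawal differed between MΦs and ECs. Tested as an interaction over the No Dox and 1wk WD samples of both cell types, the MΦ change exceeded the EC change by 1.46 on the log2 scale (SE 0.17, adjusted p = 0.000485, limma). It was 1 of 10 members called, beside 1.4% of all genes. At No Dox, MΦ samples at 1934–2857 were all below EC samples at 7443–8511, and at 1wk WD, at 5124–5994 and 5189–6857, the ranges overlapped. Ptgis, called in ECs alone, did not pass this test (-1.13, SE 1.09, adjusted p = 0.573), with MΦ scores of only 1–72. Ptger4 did not pass either, at 0.62 (SE 0.20, adjusted p = 0.102).

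In β cells, 0 of 10 members were called by limma with Dox, after withdrawal, or between these times, where 0.0122%, 0%, and 0% of all genes were. At an unadjusted p under 0.05 there were 0, 1, and 2, all also past 2-fold. Of all 16346 genes tested, 660, 727, and 471 met that p with a 2-fold difference. The No Dox samples were split. Ptgs1 scored 20, 8, 243, and 1095 in them, 1080, 338, 664, 792, and 57 with 1wk Dox, and 1136, 1147, and 289 after withdrawal. Samples 1 and 2 at No Dox were the lowest of all 12 and were the 2 with few stromal markers. They also had a smaller acinar share (1.70% and 0.0853%) than No Dox samples 3 and 4 (22.5% and 19.5%), larger β cell marker sums (8664281 and 5535990 against 1655791 and 628170), and smaller dendritic marker sums (481 and 309 against 4207 and 5718). EC markers, from cells rich in Ptgs1, summed to 1861, 1398, 3879, and 6483 in the No Dox samples, 45357, 15356, 20598, 5221, and 1235 with Dox, and 3593, 5829, and 15118 after withdrawal. The samples low in Ptgs1, at 20, 8, and 57, were the 3 lowest in this sum, and the part of these other cells in the Ptgs1 values was not tested. Ptgs2 had 5 and 8 in the same samples, 427 and 904 in the other No Dox samples, 41–456 with Dox, and 242–385 after withdrawal. The fitted log2 fold changes were 2.27 (SE 1.33, adjusted p = 0.762) and 3.10 (SE 1.51, adjusted p = 0.61) for Ptgs1 at these times, and 1.40 (SE 1.41) and 2.18 (SE 1.61) for Ptgs2.

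These values turned on which No Dox samples were used. Against samples 1 and 2 alone, 3 members were called as higher at both times, Ptgs1 (4.89 and 5.72), Ptgs2 (4.60 and 5.38), and Tbxas1 (1.55 and 3.10), beside 6.8% and 8.17% of all genes called as higher. Against samples 3 and 4 alone, 0 members were called, Ptgs1 at 1wk Dox was -0.34, and Ptgs2 was -1.80 and -1.02 at the 2 times, beside 0.487% and 0.0853% of all genes.

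Ptges and Hpgds ran the other way across the β cell samples. Ptges scored 6842, 7824, 2824, and 1006 at No Dox, 1987, 4556, 3878, 1698, and 5403 with Dox, and 2039, 3460, and 6713 after withdrawal. Its 3 highest values were in the 3 samples with the lowest stromal marker levels, 2 at No Dox and 1 at 1wk WD, and its lowest was in the sample with the highest. The same 3 samples had the highest β cell marker sums (8664281, 5535990, and 10888983), and the sample lowest in Ptges had the lowest mean log2 level of these markers, 13.2. Hpgds scored 730, 849, 233, and 161 at No Dox, 393–1129 with Dox, and 252, 293, and 708 after withdrawal, and was lowest in the same No Dox sample. Tbxas1, at 87, 157, 812, and 759, then 274–477, then 1330, 985, and 788, had its highest value at 1wk WD, with a log2 fold change from No Dox of 1.73 (SE 0.69, adjusted p = 0.601). MΦ markers in β cells summed to 0.199–1.45% of their No Dox MΦ level at No Dox, 0.398–0.66% with Dox, and 1.16–2.11% after withdrawal. The part of MΦs in the β cell values was not tested. Alox5ap scored 175–418 at No Dox, 72–336 with Dox, and 492, 454, and 478 after withdrawal. Its 3 1wk WD values were above all other β cell samples, with 1.54 against 1wk Dox (SE 0.47, adjusted p = 0.643).

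**Figure D4:**
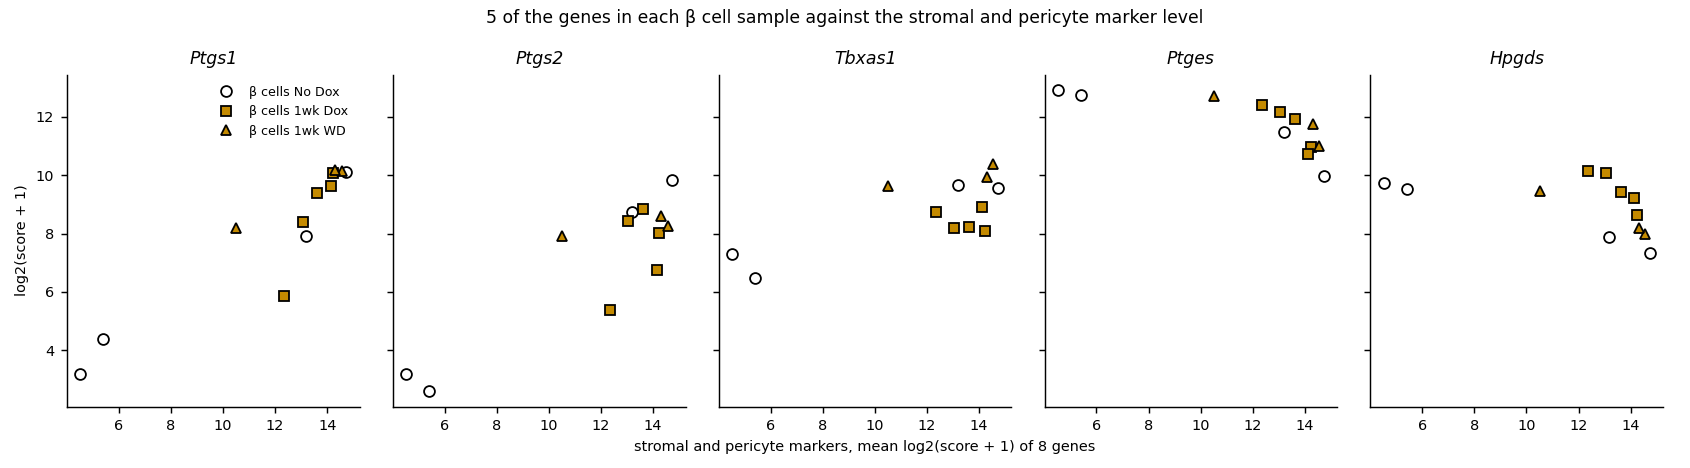
Log2(score + 1) of 5 genes (y axis) in each of the 12 β cell samples against the mean log2(score + 1) of 8 stromal and pericyte markers (x axis). Ptgs1, Ptgs2, and Tbxas1 are lowest in the 2 No Dox samples at the far left, where Ptges is highest.

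A further 44 genes of the same pathways, from phospholipases to lipoxygenases, set these members in context. In ECs at 1wk WD, 3 of the 31 that were tested rose and 1 fell, beside 1.76% of all genes called. Their median log2 fold change was 0.02, beside 0.0025 for all genes tested. Cytosolic phospholipase Pla2g4a, which releases arachidonic acid, went from 97, 66, 46, and 109 to 186, 204, 239, 159, and 212, with 216 at 1wk Dox. Its groups did not overlap, and the log2 fold change was 1.38 (SE 0.28, adjusted p = 0.0206). In β cells Pla2g4a was 9 and 18 in the 2 samples with few stromal markers and 245–2250 in the other 10. In 1wk WD ECs its highest score, 239, was in the sample with the lowest stromal marker level and its lowest, 159, in the sample with the highest. The part of stromal cells in the Pla2g4a change was not tested. The thromboxane receptor Tbxa2r fell from 2251, 2045, 2161, and 1531 to 1271, 1251, 871, 560, and 639, by 1.18 (SE 0.24, adjusted p = 0.0206), while the 1wk Dox sample was above No Dox at 3653.

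Ltb4r1, the high-affinity leukotriene B receptor, rose by 1.02 (SE 0.22, adjusted p = 0.0271), from 102–168 to 243–344. Ggt5, which acts on cysteinyl leukotrienes, rose by 1.94 (SE 0.47, adjusted p = 0.0384), from 53–113 to 91–558. Its lowest 1wk WD value was in the sample with the lowest stromal marker level, within the No Dox range, and in β cells Ggt5 was 13 and 70 in the 2 samples with few stromal markers and 296–5016 in the other 10. The part of stromal cells in the Ggt5 change was not tested. In MΦs and β cells, 0 of 36 were called by limma in each comparison of time points. Of all genes, 0.0866–2.26% were called in these MΦ comparisons and 0–0.0122% in those of β cells. At an unadjusted p under 0.05 there were 3–9 of the 36, and the share of all genes at that p alone is not given here. The MΦ and EC responses to withdrawal differed for Pla2g4a (-1.61, SE 0.31, adjusted p = 0.014) and Tbxa2r (4.01, SE 0.99, adjusted p = 0.0441), although MΦ scores of Tbxa2r were 1–61.

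At No Dox, 10 of 37 tested were higher and 9 lower in MΦs than in ECs, beside 17.6% and 15.9% of all genes, with a median log2 difference of 0.62 beside 0.011 for all genes. Hpgd, which inactivates prostaglandin E, scored 14287–18408 in MΦs and 9–45 in ECs, and the prostaglandin transporter Slco2a1 scored 12–270 in MΦs and 31049–34142 in ECs. Platelet-type lipoxygenase Alox12 was likewise an EC gene, at 10161–12292 against 55–130. In β cells the EP3 receptor Ptger3, named after its values were seen, scored 13949, 16569, 10593, and 5439 at No Dox, 1268, 2015, 1096, 630, and 5268 with Dox, and 2015, 7197, and 14612 after withdrawal. The 1wk Dox range lay wholly below that of No Dox, but the log2 difference of -2.78 (SE 0.66, adjusted p = 0.307) was not called.

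**Figure D5:**
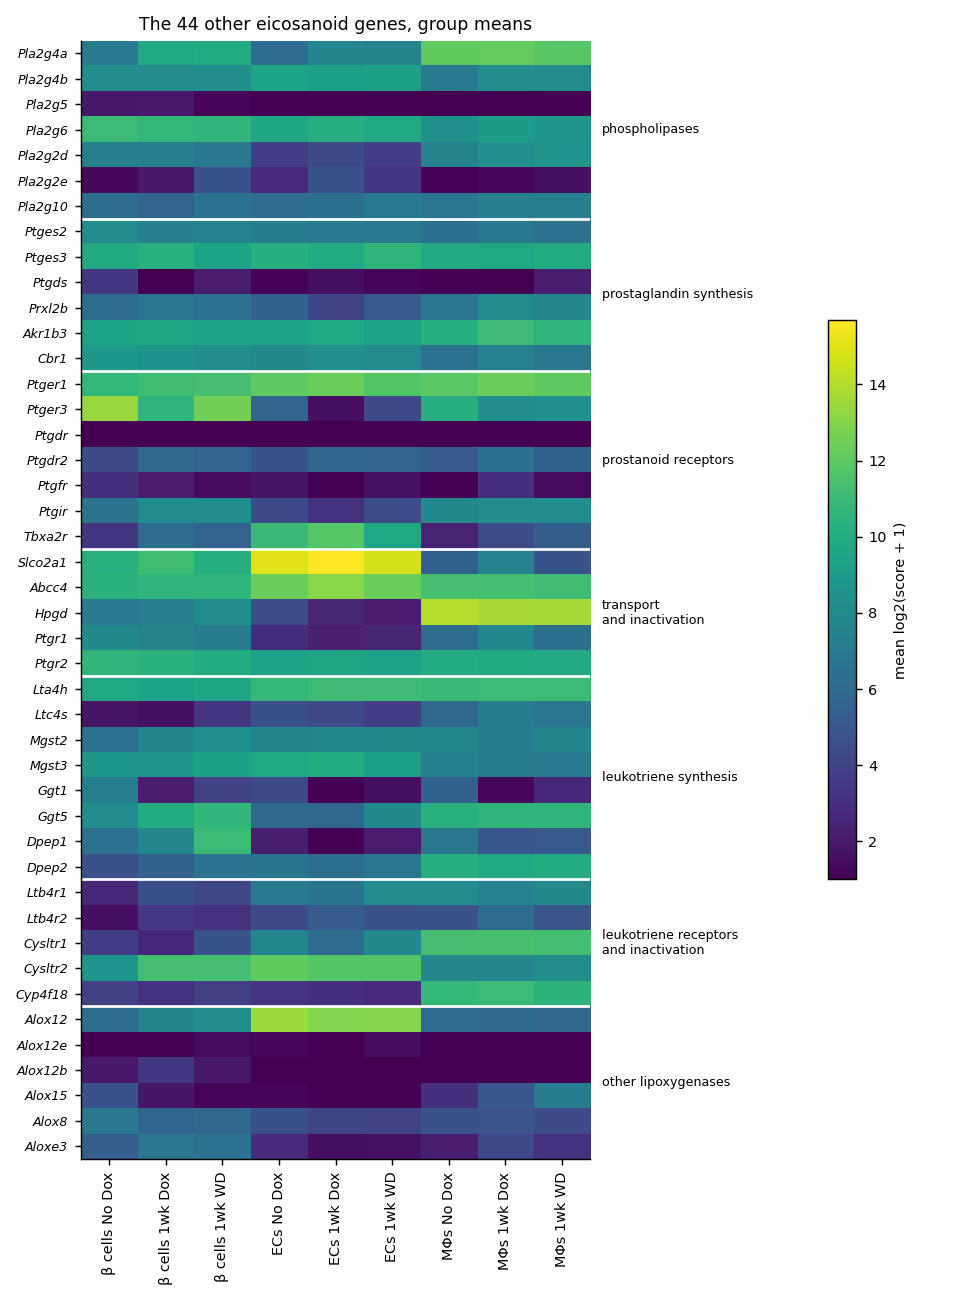
Mean log2(score + 1) (color) of the 44 other eicosanoid genes (rows, grouped by role) in the 9 groups (columns). Hpgd is highest in MΦs, Slco2a1 and Alox12 in ECs, and Ptger3 in β cells.

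For Ptgs1, Ptgs2, and Alox5ap, the genes with the most similar profile over the 32 samples were found by the root mean square difference of log2(score + 1), centered per gene, among 16968 genes. Ptgs1 was nearest to Tgtp2 (0.53), Tgfbr2 (0.55), and Sh3tc1 (0.57). Ptgs2 was nearest to Ctsc (0.96), Cd74 (1.06), and H2-Aa (1.14). Alox5ap was nearest to Fam105a (0.94), Cd83 (1.05), and Cd44 (1.06). No gene came as close to Ptgs2 or Alox5ap as these 3 did to Ptgs1.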

How the data were processed

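RNA of the sorted cells was amplified and sequenced by the authors, aligned to mm9 with TopHat 2.0, and normalized by TMM in Avadis NGS. What they deposited are scores, rounded to whole numbers, and the annotation behind these is not given in the sources used here. The table has 38 sample columns, of which 32 were used and 6, which match no sample analysed here, were not. Reads cannot be recovered, so depth and the precision of low scores are unknown.

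Each fit used log2(score + 1) and limma 3.58.1 (R 4.3.3, empirical Bayes moderation, spread following mean expression), took all genes averaging 20 or more in a fitted group, and adjusted p-values over all of them by Benjamini-Hochberg. β cell and MΦ fits held 3 time points each; ECs were fitted without the lone 1wk Dox sample. Fold changes are on the log2(score + 1) scale and understate those of low genes. Fits were tested on simulated data. The study calls the samples biological replicates, each of cells pooled from several mice, so p-values measure the spread between such pools. Named are the 10 members, pathway genes called between time points, markers beside results, the nearest profiles, and a few examples chosen after their values were seen. Members and lists were chosen with earlier results of these data known. Python 3.11.15, pandas 2.3.3, numpy 2.4.6, and matplotlib 3.10.9 were used.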

Additional observations from a re-analysis of the deposited data

Results flagged for a closer look

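The withdrawal response of Ptgs1 was flagged because it differed between MΦs and ECs, by 1.46 on the log2 scale in the interaction test (1 of 10 genes). Of 59 groups of 4 or 5 samples examined for a value far from the others, 5 had one, where chance gives about 1 in 20. In ECs at 1wk WD these were a Hpgds score of 15 and a Ptgis score of 190, both in sample 3 and both the lowest of the group, and a Ptgs1 score of 5189 in sample 1, also the lowest. Sample 3 also had the lowest stromal marker level of these ECs. In MΦs at 1wk WD, sample 2 held the highest Ptger4 score, 9165, and the lowest Tbxas1 score, 22313. Their causes were not tested.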

How the results depend on the processing

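Of 208 counts of called members recomputed under other settings, 199 stayed within 1.5 times the main count. With the replicate number as a block, 0 of the 10 members (3 of all genes, 340 without the block) were called in MΦs at 1wk Dox (Ptgs1 1.20, adjusted p = 0.173). Replicate numbers were not taken to pair the samples: over all comparisons, the deviations of same-numbered samples correlated at -0.486 to 0.414, and MΦs at 1wk Dox and No Dox share 1 number (0.115). Leaving out 1 sample in turn gave 1 to 2 members past 2-fold in the 1wk Dox EC sample. For MΦs at 1wk Dox no such count is given, because leaving out a 1wk Dox sample left 1 in the group. Without a trend of the spread, 0 members (11 of all genes, 94 with the trend) were called in MΦs at 1wk WD (Ptgs1 1.13, adjusted p = 0.0565). Median-of-ratios scaling and quantile normalization each gave 2 members past 2-fold in the 1wk Dox EC sample, Ptger4 being the second. In β cells, 2 alternatives were chosen after seeing the data. Without No Dox samples 3 and 4, 3 members (1199 of all genes) were called at 1wk Dox and 3 (1424) at 1wk WD. Without samples 1 and 2, direction reversed at 1wk Dox for Ptgs1 (-0.34), Ptgs2 (-1.80), and Tbxas1 (-1.19), and at 1wk WD for Ptgs2 (-1.02). Tbxas1 at 1wk Dox also reversed under quantile normalization (-0.18) and ranged from -0.42 to 0.65 with 1 sample left out (-0.42 without No Dox sample 1 and -0.13 without sample 2). The cause was not tested. Quantile normalization moved the median of all genes by up to 0.23 in the No Dox EC and β cell comparison. Of 761 fold changes of single members under alternatives, 740 were rated unchanged. For fitted comparisons this meant the same direction and side of the threshold. For the 1wk Dox EC sample it meant a shift smaller than the No Dox standard deviation, so Ptger4 counted as unchanged there. Ptgis in ECs and the difference in Ptgs1 response were called under every alternative, at 1.66–2.13 and 1.33–1.52.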
